A study of Mus musculus with 8 samples.

Results

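The 39 genes described here encode the machinery of autophagy, its cargo receptors, the lysosomal membrane proteins LAMP1 and LAMP2 and the transcription factors TFEB and TFE3. They were chosen as a list of symbols, not by their values, though with earlier results of these data known. The symbols were looked up in a deposited table of 14247 genes from mouse colonic crypts. The list was limited to genes that the table holds, so that all 39 were found, and each of them passed the filter used for testing, a mean of at least 10 normalised counts. Their means over the libraries ran from 100.51 normalised counts for Atg10 to 6210 for Gabarap, with a median of 850.3. A normalised count is the number of reads of a gene divided by 1 size factor for its library.

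Autophagy encloses cytoplasm in a double membrane, the autophagosome, and hands it to the lysosome for digestion. The ULK1 kinase complex starts the process, a lipid kinase complex around Beclin 1 marks the site, ATG9 and ATG2 supply membrane, and 2 ubiquitin-like conjugation systems attach proteins of the ATG8 family (LC3 and GABARAP) to the growing membrane, where cargo receptors such as p62 bind. TFEB and TFE3 switch on many genes of lysosome and autophagy when they enter the nucleus. In the gut epithelium autophagy is known for its part in Paneth and goblet cell secretion and in the handling of bacteria, and variation in human ATG16L1 is associated with Crohn's disease. BMAL1, the clock activator that the study was about, binds the E-box CACGTG, and TFEB binds an element built around the same core.

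The libraries came from the colonic epithelium of wild-type mice for which the labels name no treatment. Mice were killed at 1 of 4 zeitgeber times (ZT), the hours after lights on, namely ZT0, ZT6, ZT12 and ZT18, under a cycle of 12 h of light and 12 h of darkness. Each time point had 2 libraries, called replicate 1 and replicate 2. The study used mice of C57BL/6 background, 2 to 4 months old, and freed crypts from the large intestine with EDTA and scraping. The labels call the libraries of a time point separate samples without naming the animal behind each, and the study's captions give more mice per time point, so p-values measure the spread between these libraries. Crypts were taken as bulk tissue, in which fewer cells of a type and less RNA per cell cannot be told apart. Recovered reads ran from 14722342 to 25159440 per library. The epithelial markers fixed for a check were well expressed in all 8 libraries, summing to between 301020 and 411110 normalised counts over 10 genes.

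The promoters show where the E-box lies in these genes. Windows of 300 bases, from 250 before to 50 after the start site, were taken from RefSeq on GRCm38.p6, the build of the deposited data, and 32 of the 39 genes had an entry. Those without one were Atg12, Atg16l1, Becn1, Bnip3l, Map1lc3a, Pik3c3 and Rb1cc1. CACGTG, which reads the same on both strands, occurred in the windows of 6 of the 32 genes (18.8%), against 11.3% of the 10954 genes of the deposited table with a window and 8.09% of all 27025 genes. The promoter of Lamp1 held 4 of them, within 73 bases that end just before the start site (GRCm38.p6, chr8:13159088-13159160, plus strand). Only 4 of 13956 windows of genes in the table (0.0287%) held as many. The stretch is shown with each CACGTG in capitals:
Lamp1: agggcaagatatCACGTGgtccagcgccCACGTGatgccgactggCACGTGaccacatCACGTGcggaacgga
The other 5 genes are shown as windows of 30 bases around the motif, again in capitals, because they are the remaining members with an E-box near the start site. The motif began 94 and 71 bases before the start site in Atg3, 132 before it in Atg7, 108 before it in Bnip3, 14 before it in Atg5 and 1 before it in Atg14. A gene can have several start sites in RefSeq, and those of the Atg7 and Atg14 windows lie well inside the annotated gene. In the order of the lines, the regions are chr16:45158723-45158752, chr16:45158746-45158775, chr6:114670952-114670981, chr7:138909597-138909626, chr10:44268313-44268342 and chr14:47568418-47568447, with Bnip3 and Atg14 on the minus strand and the others on the plus strand:
Atg3, first: gcctccttttgtCACGTGtcctgggagagt
Atg3, second: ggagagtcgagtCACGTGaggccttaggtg
Atg7: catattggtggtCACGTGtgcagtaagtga
Bnip3: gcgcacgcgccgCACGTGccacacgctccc
Atg5: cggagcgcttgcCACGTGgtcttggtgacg
Atg14: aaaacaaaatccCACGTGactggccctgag
The exact longer form with GT before and AC after CACGTG was in none of the 32 windows and in 0.749% of the genes of the table. TFEB is known to act through this element, but forms of it with other letters beside CACGTG were not counted as matches. The search therefore does not show that the windows lack an element for TFEB. The shorter TCACGTGA, searched on both strands and overlapping the E-box, was in the window of Atg3 alone among the members, against 2.04% of the genes of the table. A match describes the letters of a window and shows no binding.

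The first question put to these genes was whether they followed a daily rhythm, since the study looked for rhythmic genes in this tissue. None of them passed in any test. In a 24 h cosine fit with limma on log2(normalised count + 1), 0 of 39 passed a Benjamini-Hochberg adjusted p of 0.05, where 0.118% of the 13503 genes tested passed (16 genes). At an unadjusted p under 0.05 there were 2 of 39, Lamp1 and Wipi1, against 9.15% of all genes, and edgeR and DESeq2 on the recovered reads also gave 0 adjusted and 2 unadjusted. The F-test of limma for any difference among the 4 time points gave 0 of 39, where 0.0889% of all genes passed. Its unadjusted count was 5 (Atg2a, Gabarapl1, Lamp1, Sqstm1 and Wipi1), against 7.03% of all genes, and edgeR and DESeq2 each gave 0 adjusted and 4 unadjusted. A rank test of the 24 h orders in the manner of JTK, the study's method, gave 0 of 39 under an exact p of 0.05 within a gene, where 2.06% of all genes passed. The smallest p that this exact two-sided test can give with 8 libraries is 0.019, and Lamp1 and Wipi1 came nearest with 0.057.

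The fitted swings were small. The amplitude, which is the height of the cosine above its mean on the log2 scale, had a median of 0.14 over the 39 genes, against 0.23 over all genes tested and 0.19 over those with a mean of 100 to 10000 normalised counts. The largest among the members was 0.43, in Bnip3 and Atg16l2. With all 8 libraries 0 of the 39 exceeded 0.5, whereas 17.9% of all genes and 6.01% of those with a mean of 100 to 10000 did. Both amplitudes moved up or down with the library left out, from 0.23 to 0.72 in Atg16l2 and from 0.29 to 0.71 in Bnip3. Without ZT0 replicate 1 the amplitude of Atg16l2 was 0.72 and 2 members, Atg16l2 and Bnip3, exceeded 0.5, against 20.8% of all genes. Without ZT18 replicate 2 that of Bnip3 was 0.71 and it alone exceeded 0.5. The median SD within time points was 0.19 for the members on the log2 scale. It was 0.29 for all genes and 0.24 for those with a mean of 100 to 10000. Among the members the SD ran from 0.04 in Becn1 to 0.51 in Atg101. The same libraries showed the clock. Dbp, an output gene of the clock, had 24.1 ± 3.79 normalised counts at ZT0 and 1353 ± 339 at ZT12 (SD, n = 2), an amplitude of 3.07 and an adjusted p of 4.01e-05 in the cosine fit of limma. Of 13 clock genes, 8 were called in that fit. Arntl, which encodes BMAL1, was not, with 1318 ± 395 normalised counts at ZT0 and 368.2 ± 95.6 at ZT12 (SD, n = 2). Its amplitude was 0.92 and its adjusted p 0.083 in limma. An amplitude above that of any member thus went uncalled, so 0 called members do not show the absence of a rhythm.

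**Figure D1:**
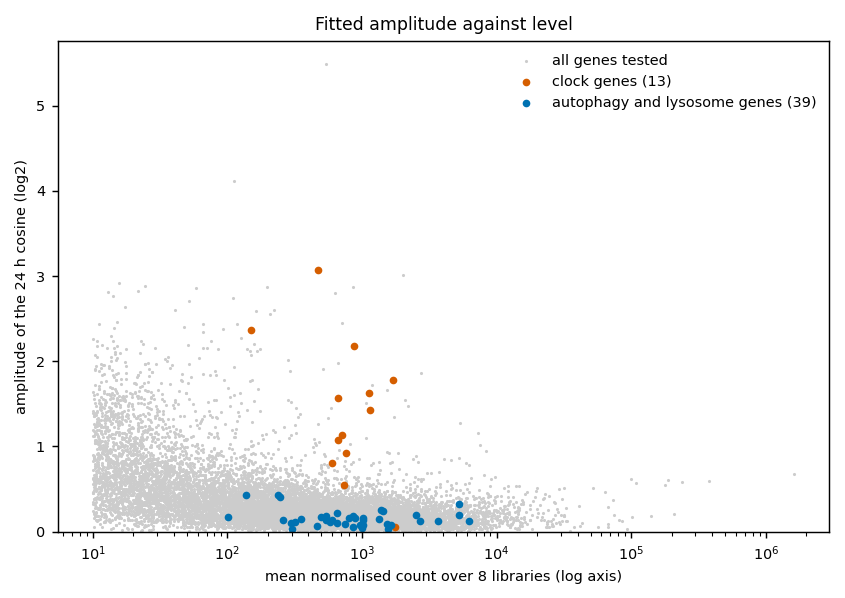
Amplitude of the fitted 24 h cosine (log2) against the mean normalised count over 8 libraries (log axis) for all 13503 genes tested (grey), the 39 autophagy and lysosome genes (blue) and 13 clock genes (orange). The members lie at or under 0.43, while the clock gene Dbp reaches 3.07.

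Levels between genes were compared as normalised counts per kb of exonic length. This length joins every annotated exon of a gene, and the transcripts present in the crypts may be shorter. Gabarap, which carries the GABARAP branch of the ATG8 family, stood highest with 3368 per kb. Lamp1, a main glycoprotein of the lysosomal membrane, followed with 1969 and Sqstm1, which encodes p62, with 1577. The lowest and highest library of Gabarap were 2128 and 4896 per kb, of Lamp1 1337 and 2512, and of Sqstm1 1164 and 1882, so that Lamp1 overlapped with both of the others and the ranges of Gabarap and Sqstm1 did not meet. The next gene was Map1lc3a with 731.8 per kb (427.3 to 1051), whose range lay below those of the top 3. Then came Nbr1 with 536.7, Atg101 with 532.4, Gabarapl2 with 440.2, Bnip3l with 404.6 and Map1lc3b with 360.4 per kb, and each of these neighbours overlapped the next over the libraries. The lower end held Atg16l2 with 27.97 per kb, Uvrag with 28.78, Atg2b with 43.17, Tfe3 with 50.09 and Ulk2 with 52.94.

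**Figure D2:**
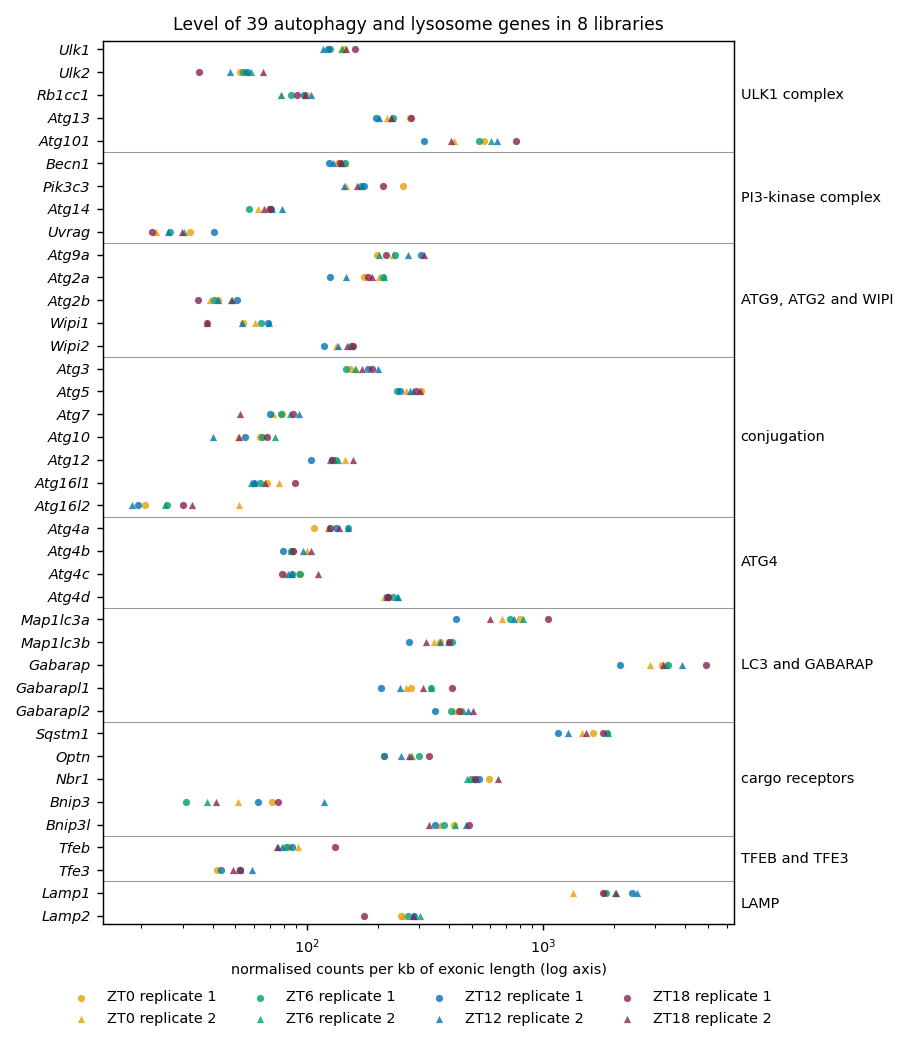
Normalised counts per kb of exonic length (log axis) of the 39 genes, ordered by their role, with 1 point for each of the 8 libraries (circle, replicate 1, triangle, replicate 2, colour by time point). Gabarap, Lamp1 and Sqstm1 are the highest and Atg16l2 and Uvrag the lowest, and the spread between the genes is far wider than that between the libraries of a gene.

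Paralogs were unequally expressed, per kb, in every library for most pairs. Lamp1 was 5.22 to 10.3 times the level of Lamp2, Gabarap 9.90 to 15.7 times that of Gabarapl1, and Bnip3l 4.02 to 12.3 times that of Bnip3. Ulk1 was 2.21 to 4.57 times Ulk2, Wipi2 1.74 to 4.13 times Wipi1 and Atg16l1 1.46 to 3.28 times Atg16l2. Atg2b was at 0.190 to 0.404 of Atg2a and Tfe3 at 0.397 to 0.743 of Tfeb. Map1lc3b was at 0.383 to 0.638 of Map1lc3a, and Gabarapl2 and Map1lc3b stood near each other, with a ratio of 0.990 to 1.59. In normalised counts Map1lc3b was the higher, with a mean of 2709 against 864.2 for Map1lc3a. Their order per kb rests on exonic lengths of 7517 and 1181 bases, so it does not settle which transcript is the more abundant. For all of these but the last pair, the same paralog was the higher per kb in 8 of 8 libraries. The same lengths enter every library, so this count depends on them. In normalised counts Tfe3 stood above Tfeb in some libraries, such as ZT12 replicate 2 (543.0 against 447.3). It stood below in others, such as ZT18 replicate 1 (482.8 against 745.1). The mean normalised counts of Lamp1 and Lamp2 were 5268 and 2512.

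Among the lysosomal membrane genes, Lamp1 (GRCm38, chr8:13159161-13175338, plus strand) had the smallest p of all members in the cosine fit. It had 4837 and 3576 normalised counts in the ZT0 libraries, 4964 and 5388 in those of ZT6, 6358 and 6719 in those of ZT12, and 4829 and 5471 in those of ZT18. Both ZT12 libraries lay above all 6 others, and 1 library of ZT0 lay below all the rest. How often the libraries of 1 time point stand apart in this way was not counted over all genes. Such an order is therefore only described, here and for the genes below. The means were 4207 ± 892 at ZT0 and 6538 ± 256 at ZT12 (SD, n = 2), a difference of 0.65 on the log2 scale (SE 0.19, 95% interval 0.22 to 1.08), with an adjusted p of 0.381 in limma. The difference was 0.43 without ZT0 replicate 2, the low library. The cosine had an amplitude of 0.33 and a peak at 11.9 h, with an adjusted p of 0.468 in limma. Lamp2, whose splice forms serve membrane stability and chaperone-mediated autophagy, had 2393 and 2448 normalised counts in the ZT0 libraries, 2579 and 2884 in those of ZT6, 2710 and 2719 in those of ZT12, and 1670 and 2692 in those of ZT18. Its 1 low value was ZT18 replicate 1, and its cosine had an adjusted p of 0.683 in limma. These are differences in transcript, and the protein was not measured in these libraries.

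**Figure D3:**
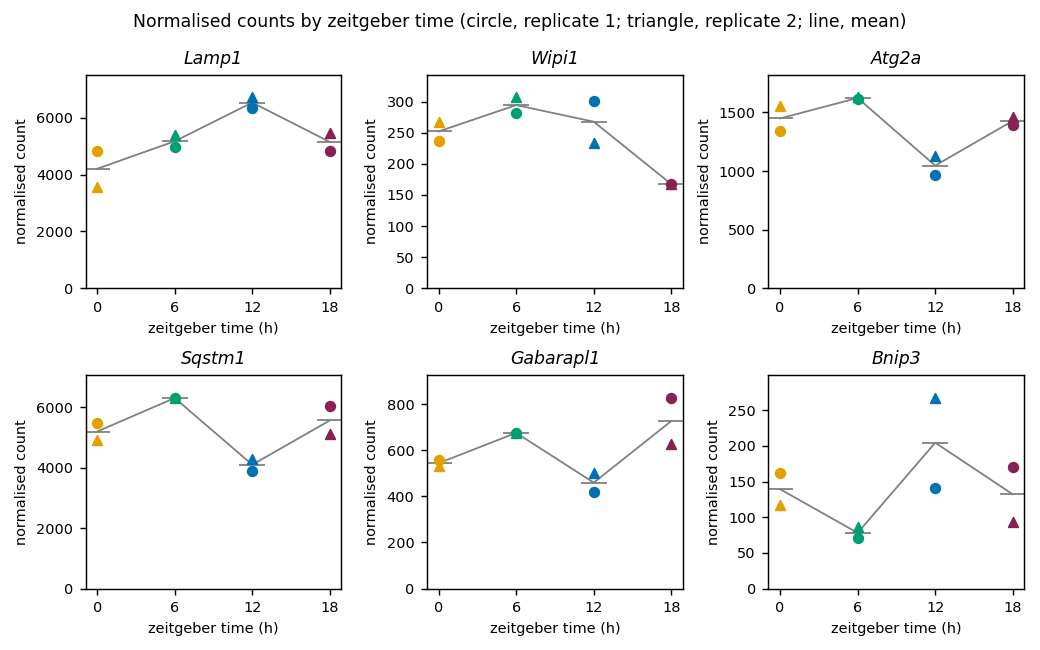
Normalised counts of Lamp1, Wipi1, Atg2a, Sqstm1, Gabarapl1 and Bnip3 against zeitgeber time (h), with each library as a point (circle, replicate 1, triangle, replicate 2) and the mean of 2 libraries as a line, each axis starting at 0. Lamp1 is highest at ZT12 and Wipi1 lowest at ZT18, Atg2a, Sqstm1 and Gabarapl1 are lowest at ZT12, and the libraries of Bnip3 at ZT12 lie far apart.

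The 5 genes of the ULK1 complex, which receives the signals of mTORC1 and AMPK, had amplitudes of 0.16 or less. Ulk1, the kinase itself, had 938.6 and 907.6 normalised counts in the ZT0 libraries, 814.4 and 914.9 in those of ZT6, 798.7 and 758.6 in those of ZT12, and 1042 and 953.1 in those of ZT18. Its ZT18 libraries lay above all others and its ZT12 libraries below all others, but the step from ZT12 to ZT18 was 0.36 on the log2 scale (SE 0.17) with an adjusted p of 0.569 in limma. Rb1cc1, the scaffold FIP200, stayed between 1140 and 1530 normalised counts and Atg13 between 857.7 and 1211. Atg101, which steadies ATG13, was the most uneven of the complex, running from 502.8 normalised counts (ZT12 replicate 1) to 1231 (ZT18 replicate 1), and the SD of its libraries within a time point was 0.51 on the log2 scale. Ulk2 ranged from 210.2 to 392.5, both at ZT18.

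The 4 genes of the lipid kinase complex had amplitudes of 0.16 or less as well. Becn1, its scaffold, varied least of the 39 genes within time points, with an SD of 0.04 on the log2 scale and values from 879.2 to 1030 normalised counts. The catalytic subunit Pik3c3 lay between 645.6 and 1138, Atg14, which directs the complex to autophagosome formation, between 246.4 and 341.3, and Uvrag, the subunit of the endosomal form, between 200.8 and 365.2.

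Of the genes that bring membrane to the autophagosome, Wipi1 and Atg2a had the widest ranges of their means over time, and neither passed a test. Wipi1 (chr11:109573331-109611967, minus strand), which binds the lipid that the kinase complex makes, had 237.4 and 266.8 normalised counts in the ZT0 libraries, 282.1 and 306.8 in those of ZT6, 301.5 and 234.0 in those of ZT12, and 167.5 and 167.3 in those of ZT18. Both ZT18 libraries lay below all 6 others and nearly coincided. The difference of ZT18 from ZT6 was -0.81 on the log2 scale (SE 0.24, 95% interval -1.36 to -0.27), with an adjusted p of 0.634 in limma. The cosine had an amplitude of 0.41, a peak at 6.37 h and an adjusted p of 0.506.

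Atg2a (chr19:6241668-6262335, plus strand), a lipid transfer protein, had 1346 and 1553 normalised counts in the ZT0 libraries, 1619 and 1629 in those of ZT6, 968.1 and 1125 in those of ZT12, and 1397 and 1461 in those of ZT18. Both ZT12 libraries were the lowest of the 8, with a mean of 1047 ± 111 against 1624 ± 6.87 at ZT6 (SD, n = 2). That difference was -0.64 on the log2 scale (SE 0.17, 95% interval -1.01 to -0.26) with an adjusted p of 0.697 in limma. Its paralog Atg2b had 684.4 and 566.1 at ZT12 and 545.8 and 645.1 at ZT6, which overlap. Atg9a, the membrane scramblase, had 1144 and 1342 normalised counts in the ZT0 libraries, 1370 and 1170 in those of ZT6, 1752 and 1544 in those of ZT12, and 1251 and 1808 in those of ZT18. Its ZT12 libraries lay above those of ZT0 and ZT6, while those of ZT18 were spread over the whole range, and the adjusted p of its cosine was 0.60 in limma. A predicted gene, Gm29253, shares 1832 of the 5762 exonic bases of Atg9a on the same strand, so reads within that stretch cannot be told apart. Wipi2, which recruits the ATG16L1 complex, kept to between 1253 and 1655.

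None of the 7 conjugation genes passed a test, and 6 of them had amplitudes of 0.22 or less. Atg3, the E2-like enzyme for LC3 and whose promoter holds the E-box pair shown above, had 482.7 and 510.2 normalised counts in the ZT0 libraries, 463.2 and 503.7 in those of ZT6, 572.1 and 631.8 in those of ZT12, and 594.7 and 541.3 in those of ZT18. It was the only member whose 4 libraries of the active phase (ZT12 and ZT18) all lay above its 4 of the resting phase (ZT0 and ZT6), which held for 2.26% of all genes, and 0 members showed the opposite, against 2.06% of all genes. The difference between phases was 0.25 on the log2 scale (SE 0.13, 95% interval -0.04 to 0.55), with an adjusted p of 0.702 in limma. Atg5 lay between 570.4 and 717.1 normalised counts, Atg7, the shared E1-like enzyme, between 365.1 and 644.5, Atg12 between 807.1 and 1217 and Atg10 between 69.2 and 126.2.

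Atg16l1, which places the conjugation of LC3 on the membrane, had 651.6 and 733.1 normalised counts in the ZT0 libraries, 611.1 and 559.2 in those of ZT6, 576.8 and 575.3 in those of ZT12, and 863.8 and 639.4 in those of ZT18. Only ZT18 replicate 1 stood off, and the adjusted p of its cosine was 0.617 in limma. Atg16l2, its weakly expressed paralog, had 174.8 and 440.3 normalised counts in the ZT0 libraries, 218.1 and 212.1 in those of ZT6, 163.9 and 154.5 in those of ZT12, and 254.6 and 276.7 in those of ZT18. The value of 440.3 belonged to ZT0 replicate 2, and without that library the amplitude was 0.23 in place of 0.43 and the difference of ZT12 from ZT0 was -0.14 in place of -0.80 on the log2 scale. Without ZT0 replicate 1 they were 0.72 and -1.46. The same library had 2126 normalised counts summed over 7 markers of B and plasma cells, against 39.7 to 452.2 in the other 7, and 1889 over 7 myeloid markers, against 622.5 to 1109, and every one of these markers had reads at ZT0. Their part in the value of Atg16l2 was not tested. The 4 proteases of the ATG4 family, which trim and release LC3, had amplitudes of 0.15 or less, and Atg4d, the most abundant per kb, ran only from 1545 to 1777 normalised counts.

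The 5 ATG8 genes shared their lowest library, and none passed a test. Gabarap had 5902 and 5258 normalised counts in the ZT0 libraries, 6278 and 6114 in those of ZT6, 3924 and 7197 in those of ZT12, and 9029 and 5976 in those of ZT18. Map1lc3a had 945.6 and 790.0 in the ZT0 libraries, 857.5 and 975.9 in those of ZT6, 504.7 and 893.5 in those of ZT12, and 1241 and 706.2 in those of ZT18. In both genes the lowest value was ZT12 replicate 1 and the highest ZT18 replicate 1, each far from the other library of its time point. Map1lc3b, the source of the LC3B protein used as a marker of autophagosomes, had 2766 and 2599 in the ZT0 libraries, 3101 and 2982 in those of ZT6, 2050 and 2754 in those of ZT12, and 3021 and 2398 in those of ZT18. Gabarapl2 had 1052 and 974.7 in the ZT0 libraries, 949.9 and 1065 in those of ZT6, 816.5 and 1125 in those of ZT12, and 1027 and 1177 in those of ZT18. ZT12 replicate 1 was again the lowest library of both genes.

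Gabarapl1 was the one ATG8 gene with both ZT12 libraries below the other 6. It had 556.2 and 531.7 normalised counts in the ZT0 libraries, 676.4 and 674.5 in those of ZT6, 417.6 and 501.5 in those of ZT12, and 827.9 and 625.7 in those of ZT18. The means were 459.6 ± 59.3 at ZT12 and 726.8 ± 143 at ZT18 (SD, n = 2), a difference of 0.65 on the log2 scale (SE 0.20, 95% interval 0.19 to 1.11), with an adjusted p of 0.515 in limma. As a group, 0 of 5 ATG8 genes were higher at ZT12 than at ZT6 (median difference -0.36) and 5 of 5 were higher at ZT18 than at ZT12 (median 0.47), where the medians over all genes tested were 0.01 and -0.02, and none of these differences passed. Without ZT12 replicate 1, 2 of 5 were higher at ZT12 than at ZT6 (median -0.03) and 3 of 5 higher at ZT18 than at ZT12 (median 0.03). That library had a median deviation of -0.50 over the 5 genes, and 0.49 was the value of ZT18 replicate 1 on the log2 scale. These libraries also had the lowest and the highest share of mitochondrial reads, 6.68% and 22.2%, and ZT12 replicate 1 carried 3871 normalised counts of 6 smooth muscle markers, against 7.39 to 236.4 in the other libraries. The part of these in the ATG8 values was not tested.

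**Figure D4:**
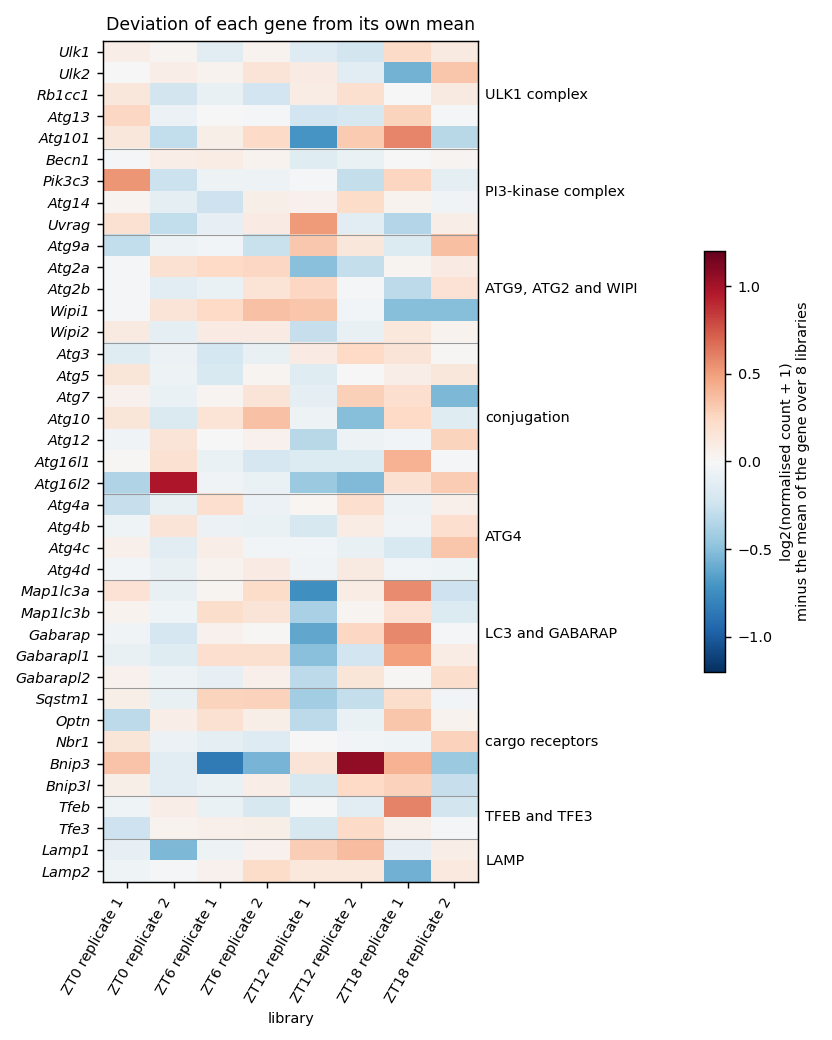
Deviation of log2(normalised count + 1) from the mean of each gene over 8 libraries, for the 39 genes by role (rows) and the libraries by time point (columns), on a colour scale from -1.2 to 1.2. The ATG8 rows are blue in ZT12 replicate 1 and most are red in ZT18 replicate 1, and Atg16l2 stands out in ZT0 replicate 2.

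Among the cargo receptors, Sqstm1 (chr11:50199366-50210827, minus strand) was lowest at ZT12, as Atg2a was, and did not pass a test. It had 5478 and 4916 normalised counts in the ZT0 libraries, 6297 and 6316 in those of ZT6, 3905 and 4292 in those of ZT12, and 6026 and 5104 in those of ZT18. Both ZT12 libraries were the lowest and both ZT6 libraries the highest. The difference of ZT12 from ZT6 was -0.62 on the log2 scale (SE 0.17, 95% interval -1.005 to -0.241), with an adjusted p of 0.697 in limma. Its exons share 580 bases with Mrnip on the opposite strand. Such overlaps were annotated for 14 of the 39 genes, with 25 to 3104 shared bases, the longest being those of Becn1 with Cntd1 (3104), Uvrag with Gm45187 (1589) and Atg4d with Kri1 (1405), and a shorter one was that of Lamp1 with Grtp1. Whether the counting used strand is not stated, so within the shared bases reads of these genes and of their partners may not be told apart. Nbr1 and Optn, the other receptors of ubiquitinated cargo, ran from 3297 to 4461 and from 795.6 to 1244 normalised counts.

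Bnip3 and Bnip3l are receptors of the outer mitochondrial membrane for the removal of mitochondria, and Bnip3 is reported elsewhere as a target of BMAL1 in heart muscle cells. Bnip3 (chr7:138890836-138909519, minus strand) had 161.9 and 116.6 normalised counts in the ZT0 libraries, 70.2 and 85.9 in those of ZT6, 141.4 and 267.5 in those of ZT12, and 170.9 and 93.3 in those of ZT18. Its 2 ZT6 libraries were the lowest, and the libraries of ZT12 and of ZT18 differed widely within their time point. The difference of ZT12 from ZT6, 1.31 on the log2 scale (SE 0.43, 95% interval 0.35 to 2.28), was the largest among the members in any pair of time points, with an adjusted p of 0.705 in limma. With 1 library left out it ranged from 0.86, when ZT12 replicate 2 was omitted, to 1.77, when ZT12 replicate 1 was. Bnip3l had 1628 and 1421 normalised counts in the ZT0 libraries, 1469 and 1634 in those of ZT6, 1355 and 1832 in those of ZT12, and 1879 and 1274 in those of ZT18. Its 4 means lay within 0.05 of each other on the log2 scale, while its libraries within a time point had an SD of 0.27. Transcripts of Bnip3, Bnip3l, Gabarapl2, Atg4a, Atg12 and Uvrag match a transcript of another gene at 95% or more over at least 150 bases, so their counts are uncertain where reads could fall on either. Of 15 tested targets of hypoxia, the setting in which both Bnip3 genes are best known, 0 were called in the cosine fit of limma. An unadjusted p under 0.05 was found for 5 of the 15, against 9.15% of all genes, the largest amplitude being 0.68 in P4ha1. These 5 did not peak together, with 8.02 h for Egln3, 8.97 h for Pdk1, 18.3 h for Pgk1, 19.2 h for P4ha1 and 23.6 h for Hk2. The fitted peak of Bnip3 was at 15.6 h. Whether hypoxia had a part in the values of Bnip3 was not tested.

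TFEB and TFE3 are controlled mainly through their place in the cell, which RNA does not show. Tfeb had 473.8 and 520.5 normalised counts in the ZT0 libraries, 464.5 and 430.8 in those of ZT6, 491.6 and 447.3 in those of ZT12, and 745.1 and 423.1 in those of ZT18. Only ZT18 replicate 1 stood apart. Its difference of ZT18 from ZT6 was 0.33 with that library and -0.080 without it on the log2 scale. Tfe3 had 388.4 and 474.8 normalised counts in the ZT0 libraries, 481.7 and 485.2 in those of ZT6, 402.6 and 543.0 in those of ZT12, and 482.8 and 452.8 in those of ZT18. Both libraries of ZT6 lay below those of ZT0 in Tfeb and above them in Tfe3, and the libraries overlapped between the other pairs of time points. The adjusted p of their cosines was 0.793 and 0.941 in limma.

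The comparisons between pairs of time points placed bounds on the changes. Between ZT6 and ZT0, 0 of 39 members were called by limma, where 0.0444% of all genes were, and 0 had an unadjusted p under 0.05 against 4.13% of all genes. Between ZT12 and ZT0 0 were called (background 0.0667%) and 2 had an unadjusted p under 0.05, Atg2a and Lamp1, against 9.96%. Between ZT18 and ZT0 0 were called (background 0.0%), with 1 unadjusted, Wipi1, against 5.02%. The step from ZT6 to ZT12 gave 0 called (background 0.0%), with 4 unadjusted, Atg2a, Bnip3, Gabarapl1 and Sqstm1, against 6.78%. ZT18 against ZT6 gave 0 called (background 0.0444%), with 1 unadjusted, Wipi1, against 6.71%. ZT18 against ZT12 gave 0 called (background 0.0296%), with 4 unadjusted, Atg2a, Gabarapl1, Sqstm1 and Wipi1, against 9.03%. The tools edgeR and DESeq2 also called 0 members in each of the 6, with between 0 and 4 unadjusted. The median differences of the members ran from -0.08 (ZT12 against ZT0) to 0.14 (ZT18 against ZT12) on the log2 scale, against -0.02 to 0.01 over all genes. With 1 library left out, the first ran from -0.15 (without ZT12 replicate 2) to 0.04 (without ZT12 replicate 1) and the second from 0.01 (without ZT12 replicate 1) to 0.19 (without ZT12 replicate 2). By direction alone, 24 members were higher and 15 lower at ZT6 than at ZT0, 15 higher and 24 lower at ZT12 than at ZT0, and 29 higher and 10 lower at ZT18 than at ZT0. At ZT12 against ZT6 it was 13 higher and 26 lower, at ZT18 against ZT6 21 and 18, and at ZT18 against ZT12 23 and 16. Of all genes tested, between 48.0% and 51.4% were higher in these comparisons.

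The study speaks of an active and a resting phase, and gave its agent of colitis at ZT0 or at ZT12. Pooling ZT12 with ZT18 and ZT0 with ZT6 was a choice made here. Between the active and the resting phase so defined, 0 of 39 members were called by limma, where 0.0592% of all genes were. An unadjusted p under 0.05 was found for 2, against 7.61% of all genes. Lamp1 was higher in the active phase by 0.32 (SE 0.13) and Atg2a lower, by -0.33 (SE 0.12), with adjusted p of 0.646 and 0.613. The count at an unadjusted p was 1 in edgeR and 3 in DESeq2, with 0 adjusted in both. The members were split evenly, 19 higher and 20 lower, with a median of -0.01. For 38 of the 39 genes the 95% interval of this difference lay within 1 on the log2 scale, that is a change of 2-fold either way, and the exception was Bnip3 (0.60, interval -0.09 to 1.28). For single steps of the day, with 2 libraries against 2, between 30 and 35 of the 39 intervals lay within that bound.

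**Figure D5:**
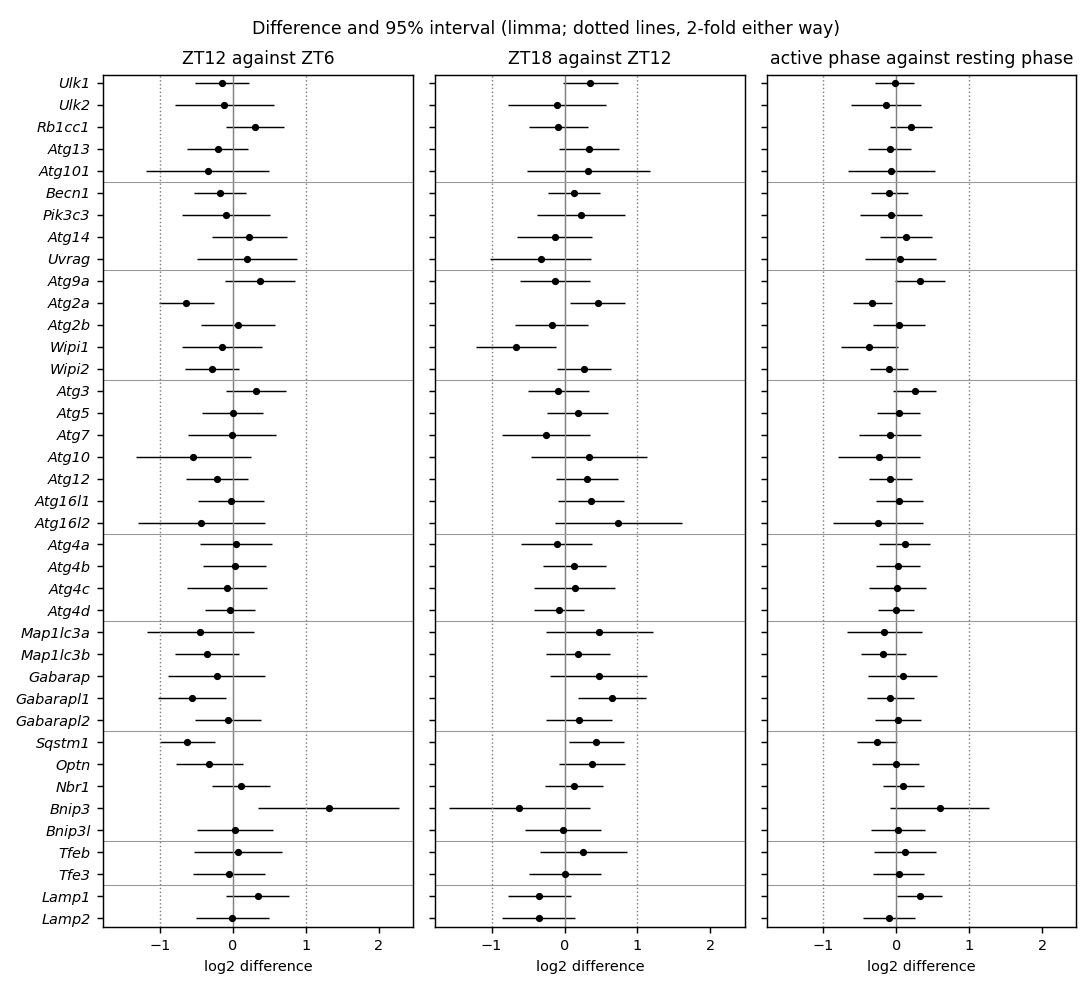
Log2 differences of the 39 genes with their 95% intervals from limma for ZT12 against ZT6, ZT18 against ZT12 and the active against the resting phase, with dotted lines at a change of 2-fold either way. In the last comparison 38 of the 39 intervals lie between the dotted lines, and the 1 that crosses is Bnip3.

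Further genes of the pathway were looked at in 7 lists of 137 genes, of which 136 were in the table and 135 were tested. None was called by limma in the cosine fit or in the F-test over the time points, where 10 and 4 had an unadjusted p under 0.05 (7.41% and 2.96%, against 9.15% and 7.03% of all genes). The edgeR counts were the same, and DESeq2 called 1 in the cosine fit, Trp53inp1, with 12 unadjusted, and 0 in the F-test, with 5. Trp53inp1, a p53 target that binds LC3, had 1653 and 1250 normalised counts in the ZT0 libraries, 1613 and 1572 in those of ZT6, 2561 and 2200 in those of ZT12, and 1847 and 1975 in those of ZT18. Both ZT12 libraries lay above the other 6, and the amplitude was 0.38 with an adjusted p of 0.385 in limma. It was also the smallest p among the 14 further genes of the machinery, followed by Rubcn, an inhibitor of the lipid kinase complex, with an amplitude of 0.29, and Tmem41b, with 0.22.

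The list of upstream kinases and mTORC1 had 0 of 24 called and 4 at an unadjusted p under 0.05. Prkaa2, a catalytic subunit of AMPK, had the smallest p of that list, with 1696 and 2067 normalised counts in the ZT0 libraries, 2883 and 2747 in those of ZT6, 4279 and 2909 in those of ZT12, and 1453 and 2550 in those of ZT18. Its ZT12 libraries were above those of the other times, and the libraries of ZT12 and of ZT18 lay far apart, so that the amplitude of 0.53 had an adjusted p of 0.435 in limma. Prkab2, a regulatory subunit of AMPK, peaked at 4.18 h with an amplitude of 0.59, and Stk11, the kinase LKB1 that activates AMPK, at 23.5 h with 0.37, with adjusted p of 0.494 and 0.527 in limma.

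In the lysosome itself, 0 of 37 enzymes were called and 2 had an unadjusted p under 0.05, Lipa, the acid lipase (amplitude 0.30), and Manba, a beta-mannosidase (0.34). Of 19 genes of lysosomal membrane and transport 0 were called and 2 were unadjusted, Laptm4b (0.26) and the sialic acid exporter Slc17a5 (0.29). The 15 genes of the proton pump, the vATPase, gave 0 called and 0 unadjusted, with amplitudes up to 0.24, and the smallest p belonged to Atp6ap1, Atp6v1d and Atp6v1c1. The 14 genes of fusion with the lysosome gave 0 and 0, led by Vps41, Stx17 and Vps16, with amplitudes up to 0.21. The 12 further cargo receptors gave 0 and 0, led by Tax1bp1, Pink1 and Fundc1, with amplitudes up to 0.32. Median amplitudes of the 7 lists lay between 0.09 and 0.18, under the 0.23 of all genes tested. The highest, 0.184 for the further machinery, was close to the 0.188 of genes with a mean of 100 to 10000 normalised counts.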

How the data were processed

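Bulk RNA sequencing of colonic crypts gave 8 libraries, 2 for each of 4 zeitgeber times, grouped by their labels. The authors aligned reads with STAR to GRCm38, and per the labels DESeq2 was used; the gene annotation, the read counter and its strand setting are not given in the sources used here. The authors deposited a signal per gene and library, the read count divided by 1 size factor per library, called the normalised count; dividing by the size of the smallest step returned whole reads for 100% of the values, to within 0.1 read, in all 8 libraries. The deposited fold change, p-value and score columns of the authors' own comparison were not used. Recovered reads had a median of 17507372 per library, and a count of 0 allows up to 3 reads (2.41 to 3.70 normalised counts), which covers counting error only. The members, the gene lists and the tests were chosen with earlier results of these data known. Genes with a mean of at least 10 (13503) were fitted with limma 3.58.1 on log2(normalised count + 1) with a mean-variance trend, all 8 libraries in 1 model, and p-values were adjusted by Benjamini-Hochberg over all genes tested; differences are on the log2(value + 1) scale. Values in every library were given by rule for the 8 members with the smallest p in the cosine fit, the 4 with the smallest in the F-test, Tfeb, Tfe3, both LAMP genes, both BNIP3 genes and the ATG8 family, and for pathway lists the 3 genes with the smallest p were named, apart from 2 that are not reported here. Alternatives were edgeR 4.0.16 and DESeq2 1.42.0 on recovered reads, other pseudocounts, filters and scalings, a replicate block and leaving out each library. Positions and lengths are from GENCODE M21 (GRCm38), with 14239 of 14247 genes matched, and copies were searched with BLAST 2.17.0. The fits were tested on simulated data.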

Additional observations from a re-analysis of the deposited data

How the results depend on the processing

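The count of members called stayed at 0 in the cosine fit, the F-test, the 6 pairs of time points and the contrast of phases under every alternative run, namely pseudocounts of 0.1 and 10, no filter, a mean of at least 50, no variance trend, TMM, quantile and non-mitochondrial scaling, edgeR, DESeq2, the replicate block, each library left out, and for pairs a fit on their own libraries. The smallest adjusted p of any member under any of these was 0.0989, for Lamp1 at ZT12 against ZT0 in DESeq2. Of the further pathway genes DESeq2 called 1 in the cosine fit. Leaving out 1 library at a time gave 0 to 1 members in the rank test, Wipi1 without ZT12 replicate 1 and Lamp1 without ZT18 replicate 1, each at 0.038, the smallest p that 7 libraries can give. For each of 19 named members a single chosen difference between time points was followed through these runs. Leaving out a library reversed 3 of these differences, none of them called. Tfeb at ZT18 against ZT6 ran from -0.080 (without ZT18 replicate 1) to 0.73. Bnip3l at ZT12 against ZT0 ran from -0.17 (without ZT12 replicate 2, and -0.0473 without ZT0 replicate 2) to 0.27. Gabarapl2 at ZT18 against ZT12 ran from -0.034 (without ZT12 replicate 1) to 0.43. Reversals in the other differences were not counted, and some ATG8 genes changed direction without ZT12 replicate 1, as given above. The cause was not tested. Medians of the members, all small, also changed sign: at ZT12 against ZT0 (0.039 without ZT12 replicate 1), at ZT18 against ZT0 (-0.0029 without ZT0 replicate 2 and -0.026 under non-mitochondrial scaling), at ZT18 against ZT6 (-0.012 without ZT18 replicate 1) and between phases (0.033, 0.013 and 0.0081 without ZT12 replicate 1, ZT18 replicate 2 and ZT6 replicate 2, and 0.0020 in DESeq2). The other 866 values of single genes and medians kept their direction or moved by less than the spread between libraries, and 10 medians of the members moved by more than 0.057 on the log2 scale, 9 of them when 1 library was left out. Scaling to reads outside the mitochondrial genome lowered ZT18 replicate 1 by 0.11 (log2) at the median of all genes and no other library or scaling by over 0.1.

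Libraries with the same replicate number did not steadily deviate in the same direction, although 2 libraries a time point cannot exclude a pairing. Correlations of the deviations of same-numbered libraries ran from -0.29 to 0.22 over the 6 pairs of time points, and with a replicate block limma called 0 members in the cosine fit and 0 in the F-test.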

Other observations

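With 2 libraries a time point, the intervals for single genes set the limit and not the depth, since the lowest member had a mean of 100.51 normalised counts against a floor of at most 3.70. Smooth muscle markers summed to 3871 normalised counts in ZT12 replicate 1, and fibroblast markers to 2480 there and 672.5 in ZT0 replicate 2, against 3.22 to 149.9 in the other 6 libraries. Their part in the values of the members was not tested. Transcript levels give no measure of autophagic flux, which depends on modification and turnover of the proteins.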
